A study of Homo sapiens with 2 samples.

Results

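Single-cell RNA sequencing of cultured human umbilical vein endothelial cells (HUVECs) was examined here for the cells that carry the most RNA of DNA replication genes. The S-gene-high cells were selected on expression: among deep cells with few mitotic transcripts, they are the top 10% by the share of a cell's RNA molecules that came from 15 replication genes. There were 195 of them, from 1947 cells that could be ranked and 5493 barcodes in all. The 15 genes are PCNA, MCM2 to MCM7, TYMS, RRM2, GINS2, CDC6, CDC45, UHRF1, HELLS and CLSPN, so the high level of these genes is what chose the cells and not a result.

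HUVECs are primary endothelial cells of the umbilical vein and were grown to a confluent layer under flow, for about 48 h, in microfluidic devices with 50 µm channels. One group was then perfused for 4 h with healthy red blood cells (hRBC). The other was perfused for 4 h with a suspension in which 5% of the red cells were pharmacologically dehydrated (5% pdRBC), with nystatin and washes of high sucrose until their hemoglobin stood at 40 to 42 g/dL of red cell volume (the mean corpuscular hemoglobin concentration), as a model of stiff sickle red cells, and the rest were healthy. Each group is 1 library, so treatment, device, capture and sequencing cannot be told apart, and cells are not replicates: no p-value can be given, and every interval printed is a 95% interval that covers counting error only. How many devices or donors a library pools is not stated in the labels.

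Cells copy their DNA in S phase. The MCM proteins form the helicase that is loaded on origins in G1 with the help of CDC6 and is started with CDC45 and the GINS complex. PCNA is the sliding clamp of the polymerases, RRM2 and TYMS make deoxynucleotides, UHRF1 and HELLS keep DNA methylation through replication, and CLSPN relays the replication checkpoint. Most of these genes are transcribed under E2F factors from late G1 on, whereas the mitotic genes come later, in G2 and M. Endothelial monolayers at confluence and under steady flow are known for low rates of division.

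The libraries differ in depth. The hRBC library holds 3858 barcodes with a median of 1381 UMIs (unique molecular identifiers, each counting 1 captured RNA molecule), and the 5% pdRBC library holds 1635 with a median of 9425. The depth minimum of 5000 UMIs therefore kept 769 hRBC barcodes (19.9%) and 1369 5% pdRBC barcodes (83.7%) as deep cells. Of these, 88 and 103 had 5 or more UMIs from MKI67, TOP2A, CENPF, UBE2C, TPX2, BIRC5, CDK1 and CCNB1 and were set aside as mitotic cells. Among the remaining low-mitotic cells the top 10% took 65 of 681 in the hRBC library, 9.54% (7.44 to 12.004%), and 130 of 1266 in the 5% pdRBC library, 10.3% (8.65 to 12.1%). After each cell was thinned to 5000 UMIs, before both the mitotic limit and the ranking, the shares were 11.6% (9.33 to 14.1%) and 9.10% (7.60 to 10.8%). With a minimum of 3000 UMIs in place of 5000 they were 12.3% (10.2 to 14.7%) and 8.53% (7.11 to 10.1%). The intervals overlap in the first and second of these settings and do not in the third, and the hRBC library had the lower share in the first and the higher in the others. Thinning also moved cells past the mitotic limit: 61 of the 203 cells it took are mitotic cells at full depth. The libraries share 9 barcodes, and 2 of the S-gene-high cells carry 1 of them.

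The score rests on few molecules. The last cell taken had 2 UMIs of the 15 genes in 10065 (0.0199%) and the first left out had 2 in 10126 (0.0198%). A band of 10% on either side of that score holds 62 cells, 25 taken and 37 left out, so the class is a range and not a cluster of its own. Of all low-mitotic cells 51.2% had no UMI of any of the 15 genes. Among the 195 S-gene-high cells, 62 had 2 such UMIs, 84 had 3 or 4, and 49 had 5 or more, of which 13 had 10 or more. In 16 of them all these UMIs came from 1 gene. Cells with 2 UMIs made up 18.5% of the class in the hRBC library and 38.5% in the 5% pdRBC library, and the class had a median of 10662 UMIs per cell in the hRBC library and 9292 in the 5% pdRBC library.

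**Figure D1:**
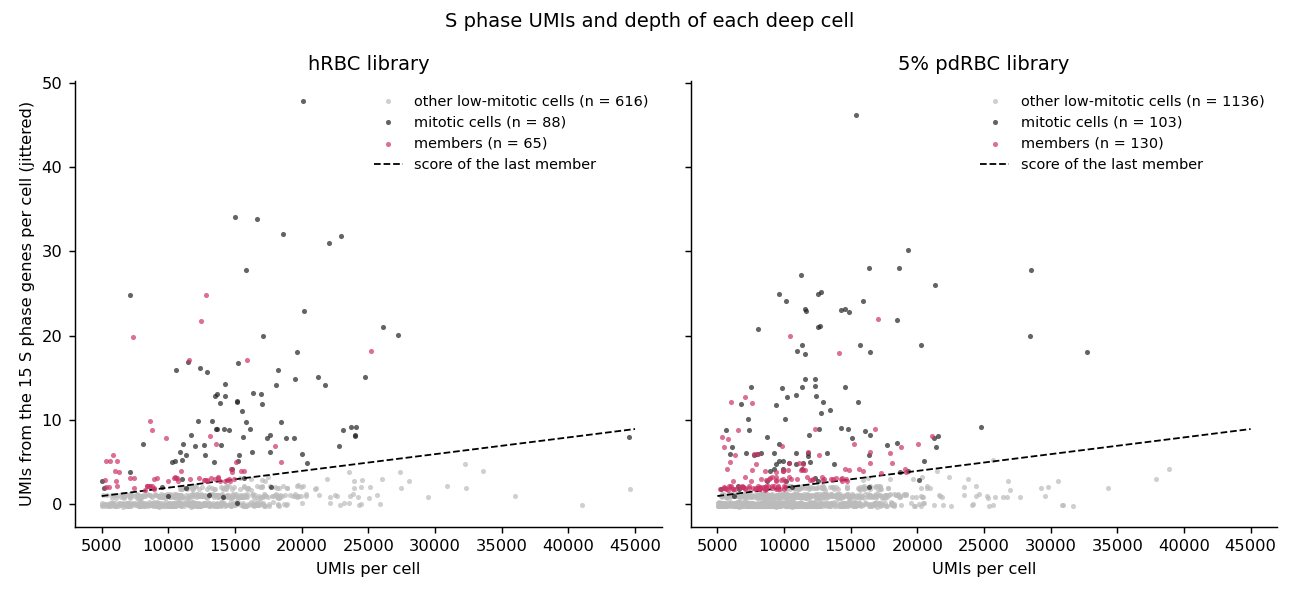
Each point is a deep cell, by its UMIs (horizontal axis) and its UMIs from the 15 S phase genes (vertical axis, jittered), with the hRBC library on the left and the 5% pdRBC library on the right. The dashed line is the score of the last cell taken (0.0199%), and the S-gene-high cells (members, red) lie just above it at 2 to 4 UMIs for the most part, while mitotic cells (black) reach up to 48.

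The defining genes of the label chose the cells, so their high level here was fixed by the rule. Summed over cells and divided by all their UMIs (given as CPM, the usual depth-scaled count), the 15 genes stood at 470 CPM in the S-gene-high cells of the hRBC library and 398 CPM in those of the 5% pdRBC library. In other low-mitotic cells they stood at 48.8 and 45.0 CPM, and in mitotic cells, which the rule leaves out, at 709 and 912 CPM. Of the mitotic cells, 90.9% (82.9 to 96.0%) of the hRBC library and 96.1% (90.4 to 98.9%) of the 5% pdRBC library scored at or above the last S-gene-high cell. The cells with the most replication gene RNA in these libraries are thus not in the class, because the limit on mitotic UMIs set them aside.

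The nucleotide genes TYMS and RRM2 are described before the others, with values the rule itself used. TYMS, the thymidylate synthase, was at 101 CPM in the S-gene-high cells of the hRBC library against 5.00 in its other low-mitotic cells, and at 57.7 against 5.02 in the 5% pdRBC library. RRM2, the small subunit of ribonucleotide reductase, was at 65.9 against 1.03 CPM and at 27.3 against 0.785 CPM. TYMS gave 21.5% and RRM2 14.03% of the UMIs that chose the hRBC cells, and 14.5% and 6.87% of those that chose the 5% pdRBC cells. PCNA was at 40.7 against 9.36 CPM and at 47.8 against 6.98 CPM, so its contrast was among the smaller ones.

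To see each gene without its own part in the choice, the ranking was repeated on the other 14 genes and the left-out gene was read in the new top 10%. The fold over the remaining cells then ran from 1.81 to 29.1 in the hRBC library (median 5.95) and from 1.47 to 15.6 in the 5% pdRBC library (median 4.72). RRM2 kept the highest fold, 29.1 (16.2 to 56.7) and 15.6 (8.39 to 30.6), followed by CLSPN at 16.5 (7.74 to 37.9) in the hRBC library and GINS2 at 10.3 (6.19 to 17.0) in the 5% pdRBC library. MCM7 had the lowest, at 1.81 (0.798 to 3.40) and 1.47 (0.773 to 2.48), and both intervals take in 1. The interval of MCM6 took in 1 in the hRBC library as well. PCNA stood at 2.43 (1.35 to 4.00) and 2.65 (1.71 to 3.89). In all, 13 of 15 genes in the hRBC library and 14 of 15 in the 5% pdRBC library had an interval above 1. RNA of most of these genes, MCM7 not among them, was thus more frequent in cells chosen on the others. Between 159 and 192 of the 195 cells were shared with each such ranking, and total depth per cell enters every one of them.

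**Figure D2:**
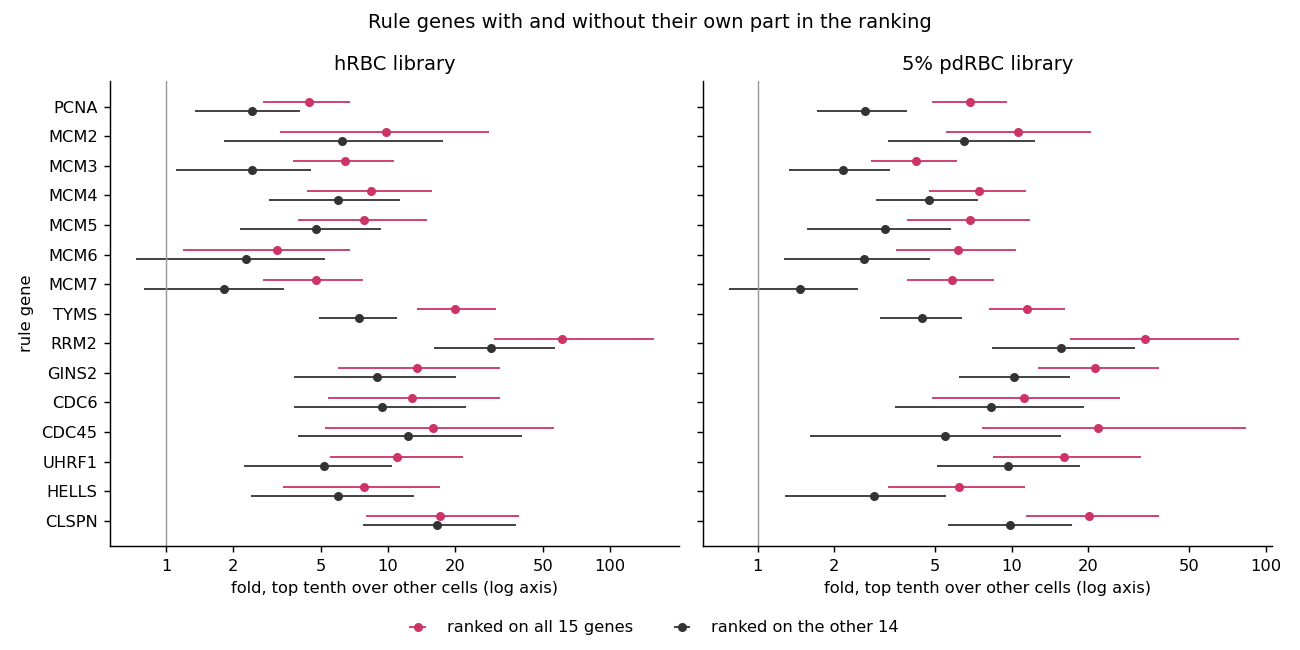
Fold of each of the 15 genes in the top 10% over other low-mitotic cells (log axis, 95% counting intervals), ranked on all 15 genes (red) or on the other 14 (black), for the hRBC library (left) and the 5% pdRBC library (right). Every black point lies left of its red point, and RRM2 stays farthest to the right in both libraries, at 29.1 and 15.6.

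The promoters of these genes show what E2F control refers to in sequence. RefSeq promoter windows (GRCh38.p14, 250 bases before each start, any start of a gene) were found for 13 of the 15 genes, all but MCM4 and MCM5, and searched on both strands for the E2F letters TTTCCCGC, TTTCGCGC, TTTGCCGC and TTTGGCGC. They occurred in 8 of the 13 (61.5%), against 3.40% of 27305 genes in the table. The 13 genes had a mean of 1.62 windows per gene, against 1.29 over all genes, and the shares were not adjusted for this. CCAAT letters, which both S phase and mitotic promoters are known to hold, occurred in 11 of the 13 and in all 5 mitotic rule genes found, against 37.0% of all genes. TTTGAA, the letters of the cell cycle homology region of mitotic promoters, occurred in 0 of the 13 and in 3 of the 5 mitotic ones, against 3 of 7 endothelial markers found and 16.1% of all genes. E2F letters also occurred in 1 of the 5 mitotic genes, CDK1, and in 1 of the 7 endothelial markers. Among replication genes outside the rule, 19 of 87 found (21.8%) held E2F letters. A match of letters is a description and not a measured site.
Stretches that hold a match are shown for the clamp, a helicase subunit with a pair of matches, the thymidylate synthase, the GINS subunit and UHRF1, 5′ to 3′ on the gene's strand, with E2F letters of either strand in capitals; in MCM6 the letters of both strands overlap.
PCNA, chr20:5126634-5126721, minus strand: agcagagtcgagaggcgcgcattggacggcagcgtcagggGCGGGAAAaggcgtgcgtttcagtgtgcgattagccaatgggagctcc
MCM6, chr2:135876482-135876635, minus strand: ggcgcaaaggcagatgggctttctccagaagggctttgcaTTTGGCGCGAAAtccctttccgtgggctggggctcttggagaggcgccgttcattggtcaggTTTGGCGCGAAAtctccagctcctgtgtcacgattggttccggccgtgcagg
TYMS, chr18:657574-657652, plus strand: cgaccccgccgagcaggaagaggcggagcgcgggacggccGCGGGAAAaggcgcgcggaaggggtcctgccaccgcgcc
GINS2, chr16:85688955-85689025, minus strand: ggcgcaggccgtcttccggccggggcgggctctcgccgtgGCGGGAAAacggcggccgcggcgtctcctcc
UHRF1, chr19:4909447-4909500, plus strand: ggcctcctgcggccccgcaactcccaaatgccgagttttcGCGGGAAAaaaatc
RRM2, CDC6, CDC45, CLSPN and MCM2 held none of these letters in their windows, and RRM2, CDC6, CDC45 and CLSPN held CCAAT letters.

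A list of 101 replication genes that the rule did not use was read next, in the same cells. It stood at 4528 CPM in the S-gene-high cells of the hRBC library against 2588 CPM in its other low-mitotic cells, a fold of 1.75 (1.69 to 1.82). In the 5% pdRBC library it stood at 3677 against 2619 CPM, a fold of 1.40 (1.36 to 1.45). These genes come from the cells the score chose, so the folds describe the class. The level followed the number of rule UMIs in a cell. The 62 cells with 2 rule UMIs stood at 2683 CPM (12 cells, hRBC) and 2764 CPM (50 cells, 5% pdRBC), folds of 1.04 (0.912 to 1.17) and 1.06 (0.992 to 1.12) over other cells. At 3 or 4 rule UMIs the list stood at 3883 and 3337 CPM, and at 5 or more it stood at 6557 and 5189 CPM. Mitotic cells stood at 6843 and 7232 CPM. By this list the S phase label therefore applies to the upper part of the range, and the difference of the 62 cells with 2 UMIs from all cells below the threshold was not detectable at this depth. Below the threshold the replication list already differed with the score. Cells with no rule UMI stood at 2512 (2461 to 2564) and 2521 (2483 to 2558) CPM. Those with 1 or more stood at 2655 (2606 to 2705) and 2735 (2693 to 2777) CPM.

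**Figure D3:**
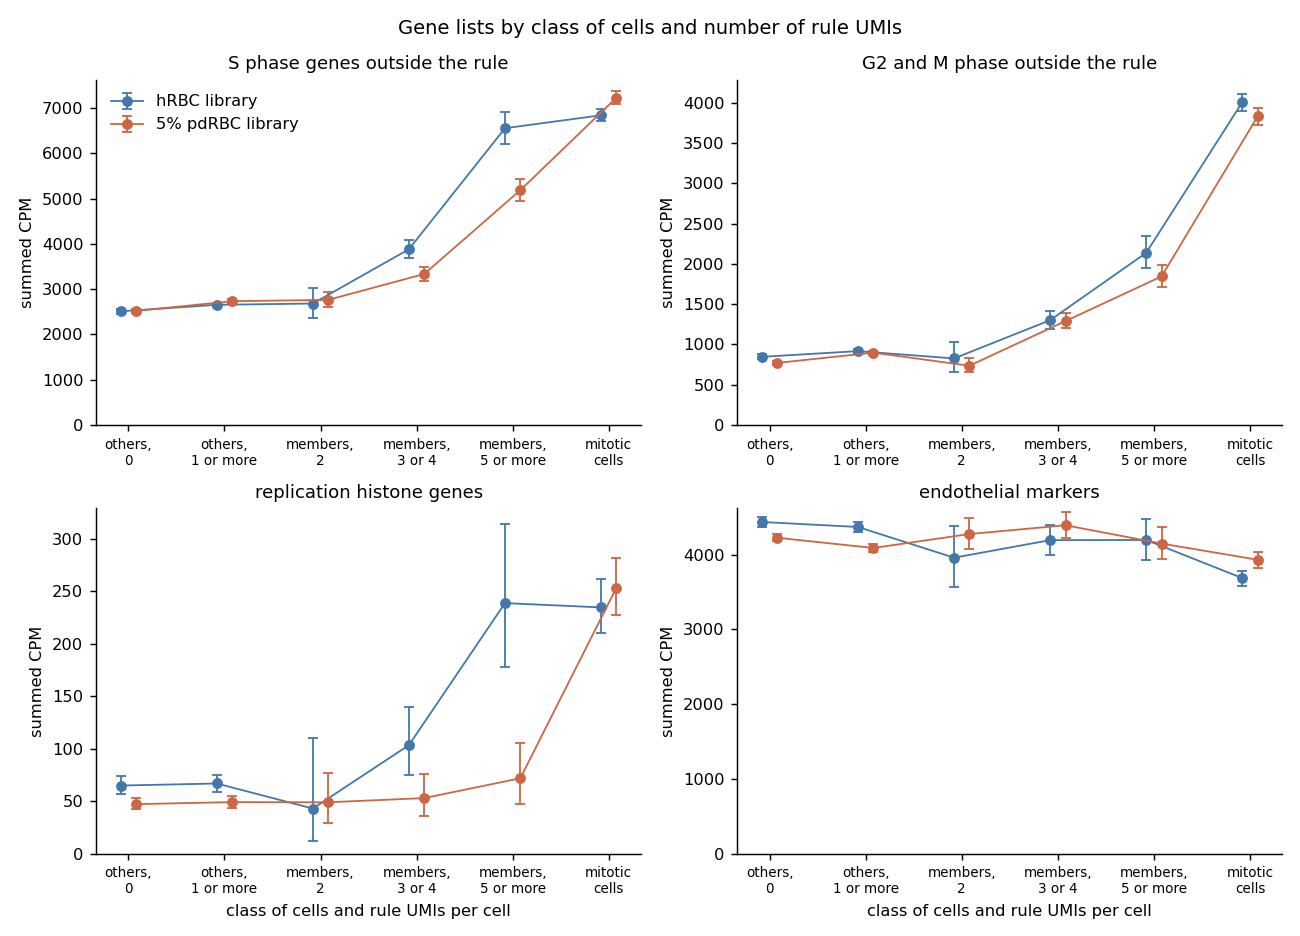
Summed CPM of 4 gene lists (vertical axes start at 0; bars are 95% counting intervals) in other low-mitotic cells, in S-gene-high cells (members) by their number of rule UMIs, and in mitotic cells, for the hRBC (blue) and 5% pdRBC (orange) libraries. Replication genes outside the rule stand at 2512 and 2521 CPM in other cells with no rule UMI, 2655 and 2735 CPM in other cells with 1 or more, 2683 and 2764 CPM in members with 2, and 6557 and 5189 CPM in members with 5 or more, while endothelial markers stay between 3688 and 4439 CPM in every class.

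Over all genes, 10705 outside the rule could be measured (30 or more UMIs over both classes in each library), and 254 of them (2.37%) were 1.5-fold or more higher in the S-gene-high cells in both libraries. In 92 of the 254 both counting intervals lay above 1. Lower by 1.5-fold or more in both libraries were 72 (0.673%), of which 11 had both intervals below 1. The median gene differed by 0.06 and 0.04 on the log2 scale. These counts, and the list counts that follow, use the contrast that chose the cells, so nothing is read from them beyond which genes accompanied the score.

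Of the polymerase, clamp loader and lagging strand genes, 9 of 16 measured were 1.5-fold or more higher in both libraries. FEN1, the flap endonuclease that trims Okazaki fragments, was at 21.0 CPM in the S-gene-high cells of the hRBC library against 4.87 in its other cells, and at 25.05 against 4.31 in the 5% pdRBC library, folds of 4.40 (2.21 to 8.03) and 5.84 (3.65 to 9.10). POLE, the catalytic subunit of the leading strand polymerase, was at 18.2 against 2.82 and at 15.2 against 5.26 CPM. POLA1, the primase-associated polymerase, was at 9.81 against 3.59 and at 15.2 against 5.96 CPM. RFC1 and LIG1, the large subunit of the clamp loader and the DNA ligase of replication, had intervals that took in 1 in the hRBC library.

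Among origin genes, 3 of 7 measured passed the fold in both libraries. GMNN, the geminin that blocks relicensing, was at 12.6 against 6.54 CPM (hRBC) and 12.9 against 6.04 CPM (5% pdRBC). TIMELESS, a fork protection protein, was at 16.8 against 5.13 and at 14.4 against 6.83 CPM. The list sum was 2.94-fold (2.49 to 3.45) and 1.86-fold (1.60 to 2.15) higher.

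In the nucleotide supply list 4 of 16 passed. TK1, the thymidine kinase of the salvage route, was at 54.7 against 6.67 CPM in the hRBC library and at 28.8 against 6.43 in the 5% pdRBC library, folds of 8.23 (5.27 to 12.7) and 4.51 (2.97 to 6.66). DUT, which clears dUTP, was at 92.5 against 47.0 and at 85.8 against 46.0 CPM. DTYMK, the thymidylate kinase, and PAICS, of purine synthesis, were the other two.

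Chromatin and DNA methylation genes passed in 7 of 15. CHAF1A, the large subunit of the assembly factor that places histones behind the fork, was at 21.0 against 5.64 CPM and at 20.5 against 4.31 CPM, folds of 3.81 (1.93 to 6.83) and 4.79 (2.88 to 7.66). With under 2 mitotic UMIs allowed its hRBC fold turned to 0.791 (0.0751 to 2.45). ATAD2, a bromodomain ATPase, was at 26.6 against 3.33 and at 12.9 against 3.77 CPM, and EZH2, the polycomb methyltransferase, at 22.4 against 7.05 and at 20.5 against 9.49 CPM. Of the replication histone genes, whose messages largely lack a poly(A) tail, only 5 of 24 were measured. HIST1H4C was at 75.7 against 26.5 CPM in the hRBC library and at 21.3 against 11.9 in the 5% pdRBC library.

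The repair and checkpoint list passed in 7 of 14. FANCI, of the Fanconi pathway, was at 23.8 against 5.13 CPM and at 17.5 against 6.12 CPM, and USP1, the deubiquitinase of FANCI's partner and of PCNA, at 46.3 against 15.4 and at 34.2 against 16.2 CPM. UNG, the uracil glycosylase, was at 11.2 against 4.87 and at 12.9 against 6.04 CPM. Genes of sister chromatid cohesion passed in 0 of 8, a count to be read against the 2.37% of all genes that passed. RAD21 was at 77.1 against 55.6 and at 59.96 against 57.0 CPM.

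Regulators of the G1 to S step passed in 3 of 15. E2F1 was at 29.4 CPM in the S-gene-high cells of the hRBC library against 1.79 in its other cells, 16.2-fold (7.96 to 34.9), and at 11.4 against 2.04 CPM in the 5% pdRBC library, 5.66-fold (2.75 to 10.9). MYBL2, the B-MYB factor that E2F induces, was at 77.1 against 6.67 and at 44.0 against 8.08 CPM, and CDCA4 at 33.7 against 22.0 and at 34.2 against 22.1 CPM. None of 15 measured CDK inhibitors and growth arrest genes passed in either direction, against 2.37% higher and 0.673% lower of all genes. CDKN1A, the p21 inhibitor, was at 618 against 549 CPM in the hRBC library and at 461 against 543 CPM in the 5% pdRBC library.

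Higher genes were named among those outside the rule with 20 CPM or more in a class and both intervals above 1. The 12 with the largest fold in the library where it was smaller were CENPU, PCLAF, E2F1, MYBL2, ZWINT, TK1, FEN1, DIAPH3, CENPK, CDKN3, CHAF1A and PTTG1. CENPU, a kinetochore subunit, was at 22.4 against 1.79 CPM and at 17.5 against 1.41 CPM, 12.4-fold (5.72 to 27.7) and 12.3-fold (6.38 to 24.3). PCLAF, a small protein that binds PCNA, was at 92.5 against 9.49 and at 59.2 against 9.41 CPM. ZWINT and CENPK act at kinetochores too, DIAPH3 is an actin nucleator, CDKN3 a phosphatase of CDKs and PTTG1 the securin that guards chromatid separation. In mitotic cells 11 of the 12 were higher than in the S-gene-high cells in both libraries, and the exception was E2F1, at 25.5 CPM in the mitotic cells of the hRBC library and 52.9 in those of the 5% pdRBC library.

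**Figure D4:**
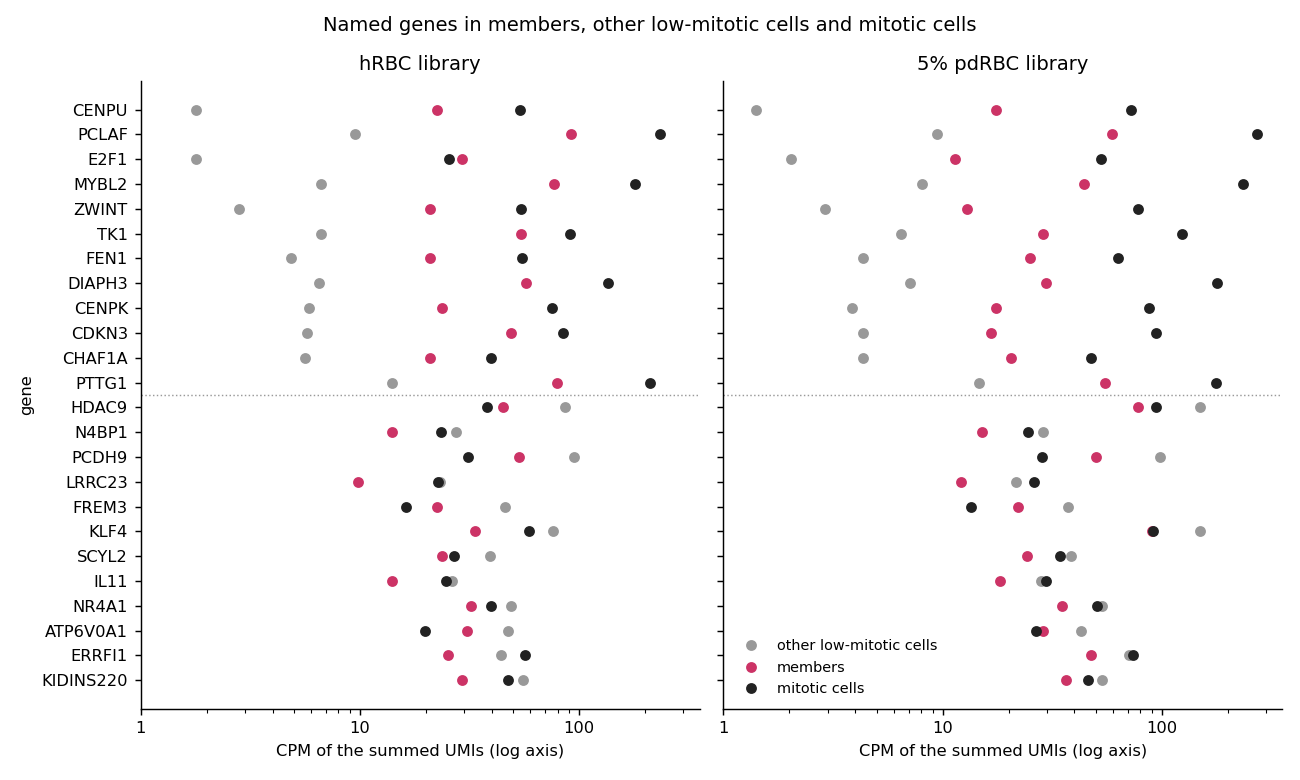
CPM (log axis) of the 12 named genes with the largest folds (above the dotted line) and the 12 with the smallest (below it) in other low-mitotic cells (grey), S-gene-high cells (members, red) and mitotic cells (black), for the hRBC (left) and 5% pdRBC (right) libraries. Above the line the S-gene-high cells lie between the other classes for all but E2F1 in the hRBC library, for example PCLAF at 9.49, 92.5 and 234 CPM there.

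G2 and M phase genes outside the rule went with the score as well. Of 8 measured, 5 were 1.5-fold or more higher in both libraries, among them PTTG1 at 79.9 against 14.1 and 55.4 against 14.7 CPM, and CKS1B, the CDK adaptor, at 96.7 against 26.7 and 67.6 against 25.7 CPM. The list stood at 1490 against 884 CPM in the hRBC library and at 1280 against 829 CPM in the 5% pdRBC library. These are folds of 1.69 (1.58 to 1.80) and 1.54 (1.46 to 1.62), against 1.75 and 1.40 for replication genes outside the rule. In mitotic cells the G2 and M phase list stood at 4010 and 3834 CPM. The rule allows up to 4 mitotic UMIs, and 16 of 65 S-gene-high cells of the hRBC library (24.6%, 14.8 to 36.9%) and 11 of 130 of the 5% pdRBC library (8.46%, 4.30 to 14.6%) had 3 or 4. Among other low-mitotic cells 0.649% and 0.968% did. The level of S phase genes outside the rule moved with these UMIs: it was 3362 and 3115 CPM in S-gene-high cells with no mitotic UMI and 6271 and 5203 CPM in those with 3 or 4. With cells of under 2 mitotic UMIs only, the folds of the list over other cells were 1.32 and 1.30.

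Lower genes were named among those with 20 CPM or more in a class and both intervals below 1. Of these the 12 lowest in the S-gene-high cells were HDAC9, N4BP1, PCDH9, LRRC23, FREM3, KLF4, SCYL2, IL11, NR4A1, ATP6V0A1, ERRFI1 and KIDINS220. Only 11 of the 72 genes 1.5-fold or more lower had both intervals below 1, so some genes left out had larger folds. HDAC9, a histone deacetylase, was at 44.9 against 86.5 CPM in the hRBC library and at 78.2 against 150 CPM in the 5% pdRBC library, 1.90-fold and 1.91-fold lower. PCDH9, a protocadherin, was at 53.3 against 94.7 and at 50.1 against 98.7 CPM. KLF4, a transcription factor that laminar flow induces in endothelium, was at 33.7 against 76.5 and at 90.3 against 150 CPM, 2.23-fold and 1.65-fold lower. In mitotic cells HDAC9 was at 38.3 and 93.9 CPM, so the 5% pdRBC library was the higher one in every class. All 12 differences were smaller than those of the 12 highest genes. FREM3 in the hRBC library, and IL11 and ERRFI1 in the 5% pdRBC library, turned direction under another choice of cells: FREM3 stood at 1.07-fold with the top 20% taken, and IL11 and ERRFI1 at 1.08-fold and 1.11-fold after thinning.

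The S-gene-high cells were endothelial by their markers. All 12 markers were measured, and their sum was 4166 CPM (hRBC) and 4293 CPM (5% pdRBC) against 4403 and 4165 CPM in other low-mitotic cells. None of the 12 passed 1.5-fold in both libraries in either direction, against 2.37% higher and 0.673% lower of all genes. PECAM1, the junctional adhesion molecule, was at 630 against 761 and at 666 against 700 CPM, and VWF, the stored clotting factor carrier, at 480 against 391 and at 456 against 421 CPM. All 10 erythroid markers were at 0 in these cells, which allows up to 4.21 CPM in the hRBC library and 2.28 CPM in the 5% pdRBC library. Of 12 leukocyte markers 9 were at 0, and S100A8, S100A9 and PTPRC together had 7 UMIs, all in the 5% pdRBC library. Of the 10 fibroblast and mural markers 4 were at 0, and nearly all UMIs of the list came from RGS5, at 341 and 305 CPM against 374 and 336 CPM in other cells. Of 6 platelet and 6 epithelial markers 5 each were at 0.

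Endothelial programmes outside the cycle were read by the same count. Of 14 Notch and arterial genes, 18 genes of VEGF and insulin-like growth factor signalling, 20 matrix and contractile genes, 16 immediate early genes and 9 leukocyte recruitment genes measured, none passed 1.5-fold in the same direction in both libraries, a count to be read against the 2.37% and 0.673% of all genes. The count leaves out genes that went opposite ways, such as CXCL8, a neutrophil chemokine, at 0.85 on the log2 scale in the hRBC library and -1.20 in the 5% pdRBC library. In the shear and quiescence list KLF4 alone passed, of 10. Of 16 ribosome biogenesis genes 2 passed, NOP56, of the box C/D particles, at 47.7 against 27.3 and 40.2 against 25.9 CPM, and DKC1, the pseudouridine synthase, at 36.5 against 22.0 and 40.2 against 24.4 CPM. BBC3, the PUMA gene, was the 1 of 14 p53 targets that passed, at 46.3 against 29.1 and 42.5 against 26.4 CPM.

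The comparison the study was built on, dehydrated against healthy red cells, was then made within the S-gene-high cells. Of 5806 genes with 50 or more UMIs in these cells, 172 (2.96%) were 1.5-fold or more higher in the 5% pdRBC library with a counting interval above 1, and 157 (2.7%) were lower by that rule. The median gene differed by 0.01 on the log2 scale. Of the same genes 55 and 22 passed in other low-mitotic cells. Those cells hold 7801256 (hRBC) and 12746254 (5% pdRBC) UMIs, against 713195 and 1317496 in the S-gene-high cells. Counting error is larger in the smaller sums, so these counts do not show which class differed more between the libraries. Of the 172, 26 were also 1.5-fold or more higher in other cells, and of the 157, 13 were also lower there. This overlap uses the fold alone in other cells, without the interval that the 55 and 22 required. The share of all 5806 genes past the fold alone there is not given, so nothing is read from the overlap. Library and treatment coincide, so these folds compare 2 libraries.

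ICAM1, the adhesion molecule that holds leukocytes on inflamed endothelium, had the largest fold among the named genes higher in the 5% pdRBC library. It was at 7.01 CPM in the S-gene-high cells of the hRBC library (5 UMIs) and at 38.7 CPM in those of the 5% pdRBC library (51 UMIs), 5.07-fold (2.22 to 17.7) higher. In other low-mitotic cells it was at 28.6 and 34.9 CPM, 1.22-fold (1.04 to 1.44). The hRBC value of the S-gene-high cells was the low one of the 4. Without the 1 cell with the most ICAM1 in each library the fold was 5.13 (2.07 to 21.9). NEK1, MKNK1, PIGS and NISCH likewise were lowest of these 4 values in the hRBC S-gene-high cells: NEK1, a NIMA-family kinase, was at 11.2 and 33.4 CPM in the S-gene-high cells and at 29.9 and 23.5 CPM in other cells. The fold of NEK1 turned to 0.949 when cells were thinned before ranking.

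Immediate early genes were higher in the 5% pdRBC library in both classes. EGR1 was at 11.2 and 58.4 CPM in the S-gene-high cells, 4.94-fold (2.52 to 12.5), and at 9.36 and 79.3 CPM in other cells, 8.42-fold (6.68 to 10.9). FOS was at 26.6 and 105 CPM, 3.84-fold (2.42 to 6.73), against 3.90-fold in other cells. FOSB and ATF3, of the same AP-1 and stress family of factors, and ZFP36, which marks short-lived messages for decay, were 4.73-fold, 2.80-fold and 3.51-fold higher. Of 15 immediate early genes measured 9 were called higher and 0 lower, against 2.96% and 2.7% of all 5806 genes. The list stood at 1547 and 2446 CPM in the S-gene-high cells, 1.58-fold (1.48 to 1.69). In other cells its fold was 1.55 (1.52 to 1.58). KLF4 was 2.64-fold (1.72 to 4.35) higher, against 1.96-fold in other cells.

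On the lower side LINGO1, a transmembrane protein best known from neurons, stood at 142 CPM in the S-gene-high cells of the hRBC library and 17.5 CPM in those of the 5% pdRBC library, 7.98-fold (5.12 to 13.4) lower. It was lower to a like degree in other cells, at 144 and 16.8 CPM. CRIP1, a LIM protein, was at 102 and 25.8 CPM, against 67.3 and 27.2 CPM in other cells. HIST1H4C was at 75.7 and 21.3 CPM, 3.53-fold (2.22 to 5.84) lower, against 26.5 and 11.9 CPM in other cells. KRT7, a keratin, was at 261 and 97.9 CPM, 2.66-fold (2.12 to 3.36) lower, against 144 and 128 CPM, and CXCL1, a neutrophil chemokine, at 60.3 and 22.8 CPM. Both turned with the choice of cells: with the top 5% taken KRT7 stood at 1.28-fold and CXCL1 at 1.12-fold, higher in the 5% pdRBC library. Without its top cell in each library KRT7 stood at 0.412-fold (0.320 to 0.528), and CXCL1 at 0.761-fold (0.369 to 1.64), since 29 of its 43 hRBC UMIs came from 1 cell.

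The other lower genes include cell cycle genes. CDKN3 was at 49.1 and 16.7 CPM, CENPW, a kinetochore protein, at 72.9 and 27.3 CPM, RRM2 at 65.9 and 27.3 CPM, FOXM1, the G2 and M phase factor, at 39.3 and 16.7 CPM, and MTHFD2, a mitochondrial folate enzyme, at 82.7 and 33.4 CPM. CHSY3, a chondroitin synthase, and LETM2 completed the 12, with RRM2 the only gene of the rule among them. In other low-mitotic cells the intervals of CDKN3, CENPW, RRM2, FOXM1 and MTHFD2 took in 1. FOXM1 turned to 1.06-fold after thinning.

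**Figure D5:**
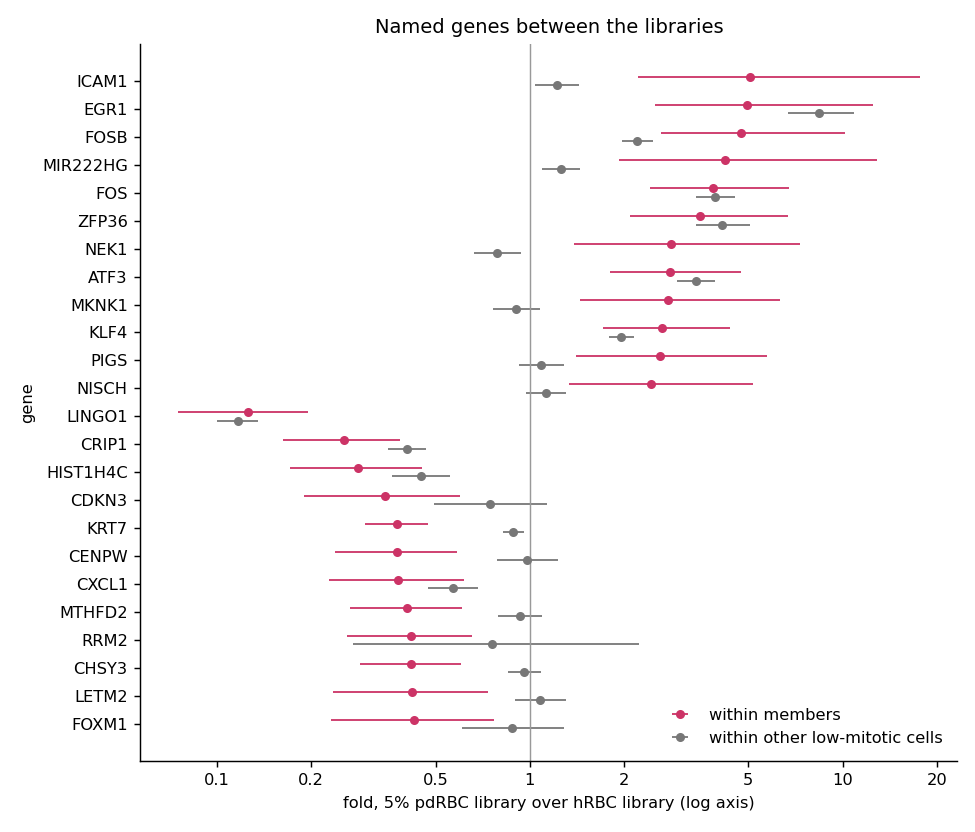
Fold of the 5% pdRBC library over the hRBC library (log axis, 95% counting intervals) for the 12 named genes highest and the 12 lowest within S-gene-high cells (members, red), with the same genes in other low-mitotic cells (grey). EGR1, FOS, ZFP36, ATF3 and LINGO1 differ in both classes, while ICAM1 (5.07 against 1.22) and KRT7 (0.376 against 0.886) lie apart.

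Replication genes outside the rule stood lower in the S-gene-high cells of the 5% pdRBC library, at 3677 against 4528 CPM, a fold of 0.812 (0.777 to 0.849), and differed little in other cells, 1.01 (0.994 to 1.03). Of 26 measured genes of the list 22 were lower and 4 higher, with a median of -0.33 on the log2 scale against -0.03 in other cells. By the call rule 5 were lower and 1 higher, against 2.7% and 2.96% of all 5806 genes. SSRP1, of the FACT histone chaperone, was at 128 and 82.0 CPM, 0.642-fold (0.482 to 0.859), and TK1 at 54.7 and 28.8 CPM, 0.528-fold (0.328 to 0.847). RFC1 went the other way, at 35.1 and 57.7 CPM, 1.62-fold (1.04 to 2.70). Among genes of the rule, TYMS was at 101 and 57.7 CPM, 1.75-fold (1.25 to 2.45) lower, and GINS2 at 21.0 and 35.7 CPM, 1.66-fold (0.932 to 3.27). Genes of the rule chose the cells of both libraries, so their folds here are not free of that choice.

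The make-up of the class moved with that difference. The 5% pdRBC cells held more members with 2 rule UMIs (38.5% against 18.5%) and fewer with 3 or 4 mitotic UMIs (8.46% against 24.6%). Within cells of 2 rule UMIs the fold of the list was 1.03 (0.897 to 1.19), within 3 or 4 it was 0.859 (0.803 to 0.919), and within 5 or more it was 0.791 (0.738 to 0.849). By mitotic UMIs the fold was 0.926 (0.863 to 0.995) in cells with 0, 0.901 (0.832 to 0.976) in those with 1 or 2 and 0.830 (0.750 to 0.917) in those with 3 or 4, each interval below 1. In cells with no mitotic UMI the fold was 0.978 (0.827 to 1.17) at 2 rule UMIs, 8 and 43 cells. At 3 or 4 rule UMIs, 21 and 31 cells, it was 0.938 (0.855 to 1.03). At 5 or more, 2 and 10 cells, it was 0.787 (0.661 to 0.945), and of these intervals only this last lay below 1. Over cells of 0 or 1 mitotic UMIs pooled, in contrast, 41 and 109 cells, the list stood at 3457 and 3462 CPM, a fold of 1.00 (0.944 to 1.06), and with the rule itself set to under 2 mitotic UMIs the fold was 0.990. Replication histone genes stood at 136 and 56.9 CPM, 0.419-fold (0.305 to 0.572), and at 65.9 and 48.0 CPM in other cells. In mitotic cells, in contrast, they stood at 235 and 253 CPM. The part of mitotic UMIs and depth in these differences was not tested beyond these values.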

How the data were processed

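The labels' protocols describe 5′ single-cell libraries from cells washed out of the devices, with red cells lysed. The authors deposited 1 matrix of raw UMI counts per library, made with Cell Ranger 7.0.0 on GRCh38 per the submitters' processing notes. The annotation release and any use of strand in counting were not given in the sources used here, so overlapping and antisense genes cannot be told apart. The deposited barcodes hold 500 or more UMIs in the hRBC library and 523 or more in the 5% pdRBC library, and 14321939 and 16158876 UMIs in all.

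Barcodes with 5000 or more UMIs and at most 10% mitochondrial UMIs were kept (1 barcode exceeded that limit), those with 5 or more UMIs of the 8 mitotic genes were set aside, and the rest were ranked over both libraries. No doublet caller was run. UMIs were summed per class and library, and a fold adds 0.5 UMIs to each sum. Intervals (95%) of folds and of shares are exact binomial (Clopper-Pearson), for a fold over how a gene's UMIs split between classes, and the limit of a count of 0 is 3 counts. PCR duplicates are removed by the UMIs, and all intervals cover counting error only. With 1 library per group no test was made. The members and the 27 gene lists were chosen with earlier results of these data known. Genes were named by rule: the 15 genes of the score, the 12 largest and 12 smallest folds with intervals without 1 (from 20 CPM on), and up to 4 genes per list; S100A8, S100A9, PTPRC, CCN1 and THBS1 were named after their values were seen. Alternatives were another share of cells, depth, thinning, mitotic limit, gene minimum, fold and cell weighting. The scripts were tested on simulated counts and ran in Python 3.11.15 with NumPy 2.4.6, SciPy 1.17.1, pandas 2.3.3 and Matplotlib 3.10.9.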

Additional observations from a re-analysis of the deposited data

Results flagged for a closer look

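Only the named genes and the genes of the lists were searched here, not all 10705 measured genes, so no share over all genes is given. For 9 of them the S-gene-high cells lay above other low-mitotic cells in one library and below them in the other, with both intervals leaving out 1. This difference between the libraries was not tested. KRT7, NEK1 and MKNK1 had been named for their fold between the libraries within the class. On the log2 scale of S-gene-high over other cells, hRBC first and 5% pdRBC second, CXCL8 stood at 0.85 and -1.20 and CCL2 at 0.64 and -0.32, both chemokines. KRT7 stood at 0.86 and -0.38, and COL8A1, a short-chain collagen, at 0.62 and -0.46. CCN1, a matrix-bound signalling protein, stood at 0.30 and -0.12, THBS1, thrombospondin, at 0.13 and -0.0498, and CDKN1A at 0.17 and -0.23. The kinases NEK1 and MKNK1 went the other way, at -1.33 and 0.52 and at -1.01 and 0.60.

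Barcodes under 5000 UMIs, which the ranking leaves out, also carried UMIs of the 15 replication genes. In the hRBC library they stood at 215 CPM over 3089 barcodes with a median of 1115 UMIs, against 84.1 CPM in all low-mitotic deep cells. In the 5% pdRBC library they stood at 171 CPM over 265 barcodes with a median of 2960 UMIs, against 78.0 CPM. A count of 0 would allow 0.682 and 4.01 CPM. Replication genes outside the rule stood at 3810 and 3117 CPM there, against 2750 and 2718 CPM. Mitotic cells were not removed from these shallow barcodes, so the shallow and deep sets are not alike. The deep mitotic cells, left out of the deep values, stood at 709 and 912 CPM for the 15 genes. For replication genes outside the rule they stood at 6843 and 7232 CPM. These values therefore do not show that shallow barcodes carried more of this RNA than all deep cells together.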

How the results depend on the processing

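No paired analysis was possible because each group has 1 library. Of 125 recomputed class sizes, list folds and gene counts 74 moved by less than their error or by less than 1.5 times and 51 by more; of 846 values of single genes 737 did not move beyond their error, 101 did and 8 changed direction. Values are given hRBC first: the share of cells taken, the folds over other cells of S phase genes and of G2 and M phase genes outside the rule, the fold of S phase genes between the libraries, and counts of genes past the threshold. Taking the top 5% gave shares of 4.41 and 5.29%, folds of 2.29 and 1.72 and of 2.20 and 1.95, 0.749 between libraries, 585 genes higher and 179 lower in the class, and 83 higher between libraries; KRT7 turned to 1.28 and CXCL1 to 1.12. The top 20% gave 20.4 and 19.7%, 1.38 and 1.26, 1.40 and 1.32, 0.921, and 122 higher and 26 lower; FREM3 turned to 1.07 in the hRBC library. From 3000 UMIs on, the shares were 12.3 and 8.53%, the S phase fold 1.53 in the 5% pdRBC library, the G2 and M phase folds 1.90 and 1.70, and 408 genes were higher. Thinning gave 2.12 and 1.87, 2.52 and 2.13, 0.871, and 487 higher and 109 lower; IL11 turned to 1.08 and ERRFI1 to 1.11 in the 5% pdRBC library, NEK1 to 0.949 and FOXM1 to 1.06 between libraries. Of the 203 thinned members 61 are mitotic cells at full depth. Under 2 mitotic UMIs the folds were 1.32 and 1.30, 1.38 and 1.31, 0.990 between libraries, and 167 genes were higher; CHAF1A turned to 0.791 in the hRBC library. At a doubled gene minimum 123 and 41 genes passed in the class and 81 and 74 between libraries, and at 2-fold 62, 9, 52 and 23 did. Cells with 3 or more rule UMIs, an alternative chosen after seeing the data, gave 1.86 and 1.55, 1.80 and 1.82, and 122 lower. Ranking within each library, a higher UMI minimum, a 5% mitochondrial limit, equal cell weights and leaving out shared barcodes moved none of these values past those limits. The number of UMIs of the 15 genes per cell, mostly 2 to 4, limits the ranking.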

Other observations

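Within the S-gene-high cells 3 of 8 measured genes of the integrated stress list were called lower in the 5% pdRBC library, against 2.7% of all 5806 genes, and the other 5 were not called; 2 of the 8 had a fold above 1. The 3 were HSPA5, the chaperone of the endoplasmic reticulum, at 0.628-fold, TRIB3, a pseudokinase, at 0.618-fold, and DDIT4, an inhibitor of mTORC1, at 0.661-fold. The list stood at 0.845-fold, against 1.05-fold in other low-mitotic cells. PHLDA3, an AKT antagonist, was the 1 of 11 p53 targets called lower, against the same 2.7%, and stood at 0.552-fold. IGFBP2, a binding protein of insulin-like growth factors, stood at 0.525-fold, against 0.962-fold in other cells. The chemokine CXCL8 stood at 0.520-fold, against 2.15-fold in other cells. Whether the classes differ in these folds was not tested.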
